A study of Arabidopsis thaliana with 23 samples.

Results

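A set of 98 probe sets with low signal in the cortex/endodermis initial (CEI) cells of the Arabidopsis root is described, out of the 22746 non-control probe sets of the ATH1 array, or 0.431% of them. The members were chosen by their measured values on all 23 arrays. Each had a signal of at least 100 on every one of the 20 time-course arrays of ground tissue, and the lowest of these was at least 2 times the highest of the 3 CEI arrays. Of the 6833 probe sets that met the floor of 100, 1.43% were members, while 38 probe sets met the mirrored rule, high in CEI cells. The contrast of CEI cells with the time course is therefore a description without a test, and only the times and lines within the time course were tested.

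The cortex/endodermis initial is the stem cell whose daughter divides to give the cortex and the endodermis, the ground tissue layers of the root. The transcription factor SHORT-ROOT (SHR) moves from the stele into the neighbouring layer, where it acts with SCARECROW (SCR) to turn on the cyclin gene CYCD6;1 and trigger that division. The members are ordered here by roles assigned by hand once the set was known, such as secreted peroxidases, antimicrobial proteins, calcium and kinase signalling, and detoxifying enzymes. These are types of protein that plants use in defence and stress, and no enrichment of such roles was tested.

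The CEI group held 3 arrays of cells sorted by the GFP of a CYCD6 marker line, from plants of the Columbia ecotype kept on standard medium. The time course used the SHR inducible line and the SCR inducible line, with cells of both sorted by the J0571 enhancer trap, which marks ground tissue. Each line was sampled at 0, 1, 3, 6 and 12 h after a move to plates with 1 microM dexamethasone (Dex), a steroid that activates such inducible factors, with 2 biological replicates per line and time. All seedlings were grown for 5 days, many roots were pooled for a replicate, and RNA was amplified in 2 cycles. The tissue is given in conflicting ways: the source names give sorted cells whereas the protocol text gives cut roots put into RNA buffer. The labels do not give the background genotype, promoter or number of independent lines behind either inducible construct. The CEI cells differed from the time course in marker line, medium and transfer at once, which cannot be told apart from cell type. Every time after 0 h followed a transfer onto Dex, so the drug and the transfer cannot be told apart either. The 0 h arrays are labelled as 0 h after Dex treatment, so no time had passed on Dex there. In such RNA, a lower signal because fewer cells made a transcript and a lower signal because each cell made less cannot be told apart.

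The name under which the set was proposed, transcripts missing only in CEI cells, goes against the values. On the 3 CEI arrays the 20th percentile of all probe sets lay between 7.0 and 12.3, and only 2 members, AT2G19970 and 254805_at, were under it on all 3 arrays. A further view gave 32 members under the median of their array on all 3 CEI arrays and 40 at or above it on all 3. The highest CEI signal was at least 100 for 51 members and at least 500 for 10. The members are thus called transcripts low in CEI cells. Probe sets differ in how strongly they bind, so these percentiles place the signals and do not rank the transcripts by abundance.

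**Figure D1:**
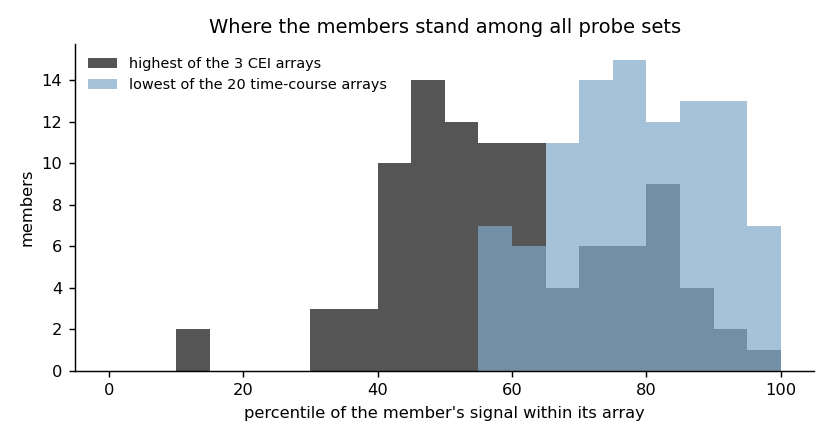
Number of members (vertical axis) by the percentile of their signal among all probe sets of the same array, controls included (horizontal axis), for the highest of the 3 CEI arrays (dark bars) and the lowest of the 20 time-course arrays (light bars). The highest CEI percentile has a median of 56.5 and runs between 10.7 and 97.3, so that most members keep a mid-range signal in CEI cells.

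The ratio of the lowest time-course signal to the highest CEI signal had a median of 2.77, with quartiles of 2.28 and 3.76. It ran from 2.01 to 70.1, with 39 members at 3 or more and 14 at 5 or more. The highest CEI signal of a member had a median of 108, and the lowest time-course signal a median of 323. Just inside the ratio of 2 lay 265221_s_at and 260143_at, both at 2.01, and 263231_at at 2.04. Just outside it lay AT5G57785 at 1.98, 258184_at at 1.96 and pEARLI4 at 1.95. Next to the floor, the lowest time-course signal was 107 for 253316_s_at, 108 for 249741_at and 112 for 265221_s_at among the members. It was 98.7 for AT3G26470, 94.0 for AT4G16260 and 93.5 for 264960_at among probe sets left out. The annotation gave 1 gene for 51 members, several genes for 3 and no entry for 44, which are named by their probe set only where needed.

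The median signal of the 98 members was 83.5, 88.7 and 65.6 on the CEI arrays and lay between 481 and 2208 on the 20 time-course arrays. The 6833 probe sets above the floor had medians between 453 and 518 on all 23 arrays, so their scale was close on every array. Across the time course the members were uneven: the highest array exceeded the lowest by a median of 6.81-fold, against 2.75-fold for all probe sets above the floor. In the SHR line the median member signal was 1067 and 481 (0 h), 2208 and 1376 (1 h), 1643 and 555 (3 h), 1074 and 571 (6 h), then 538 and 519 (12 h). In the SCR line it was 763 and 703 (0 h), 1162 and 1223 (1 h), 1241 and 895 (3 h), 1296 and 760 (6 h), then 1197 and 1474 (12 h). The lowest array fell in the SHR group at 12 h for 43 members and at 0 h for 24, and the highest fell in the SHR group at 1 h for 41. Members also moved together between replicates: replicate 1 was above replicate 2 for 83, 90, 95 and 92 of the 98 members in the SHR line at 0, 1, 3 and 6 h, against 53.4%, 49.9%, 45.3% and 47.7% of all probe sets tested. The same held for 93 members in the SCR line at 6 h, against 51.6% of all probe sets tested, while in the SCR line at 12 h replicate 2 was above for 72, against 50.5%. Which feature of the replicates goes with this was not tested.

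**Figure D2:**
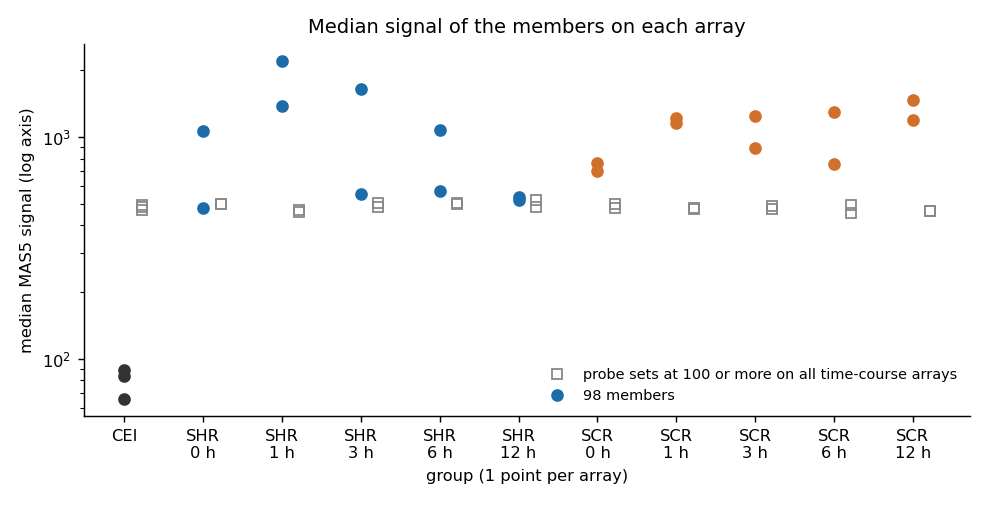
Median MAS5 signal (log axis) on each array, by group, for the 98 members (filled circles, coloured by CEI, SHR line and SCR line) and for the 6833 probe sets at 100 or more on every time-course array (open grey squares). Members sit at 65.6 to 88.7 in CEI cells and at 481 to 2208 over the time course, with the replicates of the SHR line apart at 0, 3 and 6 h, while the squares stay between 453 and 518.

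Markers of cell types and of RNA quality were set beside these levels, and their part in the result was not tested. Of the niche markers, BBM, a factor of the stem cell region, had 384, 397 and 589 on the CEI arrays in rising order, against a range of 4.78 to 144 over the time course. The summed signal of the 2 annotated niche markers was 449 to 633 in CEI cells against 30.9 to 164. Most of the CEI sum came from BBM, as the other marker, AGL42, had 44.3 to 68.5 in CEI cells against an overlapping 1.88 to 55.4. Summed endodermis markers (2 annotated of 13) gave 526 to 688 in CEI cells and 193 to 2216 in the time course, and summed cortex markers (2 of 6) gave 345 to 592 and 477 to 2167. Within each of these sums the 2 markers went opposite ways. The mean log2 difference, CEI cells minus time course, was -0.75 for GSO1 and 0.42 for AT1G61590 (endodermis). It was -1.98 for AT1G09750 and 0.22 for AT1G62500 (cortex). Summed epidermis markers (2 of 11) gave 149 to 432 in CEI cells and 22.9 to 428 in the time course, and no listed stele or root cap marker has a single-gene annotation here. The ratio of 5' to 3' control signal was 0.0859 to 0.209 in CEI cells and 0.0554 to 0.153 in the time course for actin. It was 0.448 to 0.778 and 0.357 to 0.842 for GAPDH, and 0.187 to 0.213 and 0.201 to 0.566 for ubiquitin. The CEI range thus reached above that of the time course for actin, under it for ubiquitin and lay within it for GAPDH.

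Secreted defence proteins stood at the head of the set, with 7 members whose ratios ran between 2.08 and 70.1. AT2G19970 encodes a protein of the CAP family, to which the pathogenesis-related protein PR-1 belongs. Its signal was 2.43, 3.02 and 2.55 on the 3 CEI arrays, against a lowest, median and highest signal of 211, 752 and 2789 over the time course. It is one of the 2 members at the bottom of the CEI arrays, and no detection calls were used, so the size of its 70.1-fold ratio rests on signals that were not tested against background. AT2G38870, a protease inhibitor of the potato inhibitor I family, had 12.1, 9.19 and 19.9 in CEI cells against 531, 2161 and 5038 over the time course, a ratio of 26.7. The defensin-like LCR69 had 52.3, 10.7 and 23.1 against 342, 566 and 1519. For all of these the lowest ground tissue array was several times above every CEI array, while the ground tissue arrays themselves spread by 4-fold or more.

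Further secreted members were the lectin-like AT5G18470, the lipid transfer family protein AT1G62510, the chitinase AT1G02360 and the thaumatin-like AT4G36010. AT5G18470 averaged 28.0 ± 4.96 (SD, n = 3) in CEI cells and AT1G62510 had 18.6, 20.6 and 29.8, against lowest time-course signals of 193 and 143. The chitinase averaged 51.9 ± 11.6 (SD, n = 3) and the thaumatin-like protein 251 ± 19.0 (SD, n = 3), against lowest time-course signals of 128 and 566. The last of these shows the other end of the set, a transcript with clear signal in CEI cells that was a little over 2 times higher on the lowest ground tissue array.

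Class III peroxidases, secreted enzymes that use hydrogen peroxide to cross-link wall polymers or to make reactive oxygen, formed a group of 6. AT5G64120 had 30.2, 11.7 and 48.9 in CEI cells and 425, 1591 and 3022 as lowest, median and highest time-course signals. AT1G14550 had 16.4, 27.6 and 20.9 against 239, 663 and 3886, and AT4G36430 had 83.4, 46.1 and 79.0 against 329, 1238 and 4386. These 3 had ratios of 8.69, 8.68 and 3.95. AT5G64100, AT5G39580 and AT2G37130 were nearer the threshold, at 3.09, 2.63 and 2.41. AT5G64100 and AT5G64120 lie on the same chromosome with 1 protein-coding gene between them. AT5G64100 had 379, 449 and 286 in CEI cells against 1386, 4306 and 7938 over the time course.

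**Figure D3:**
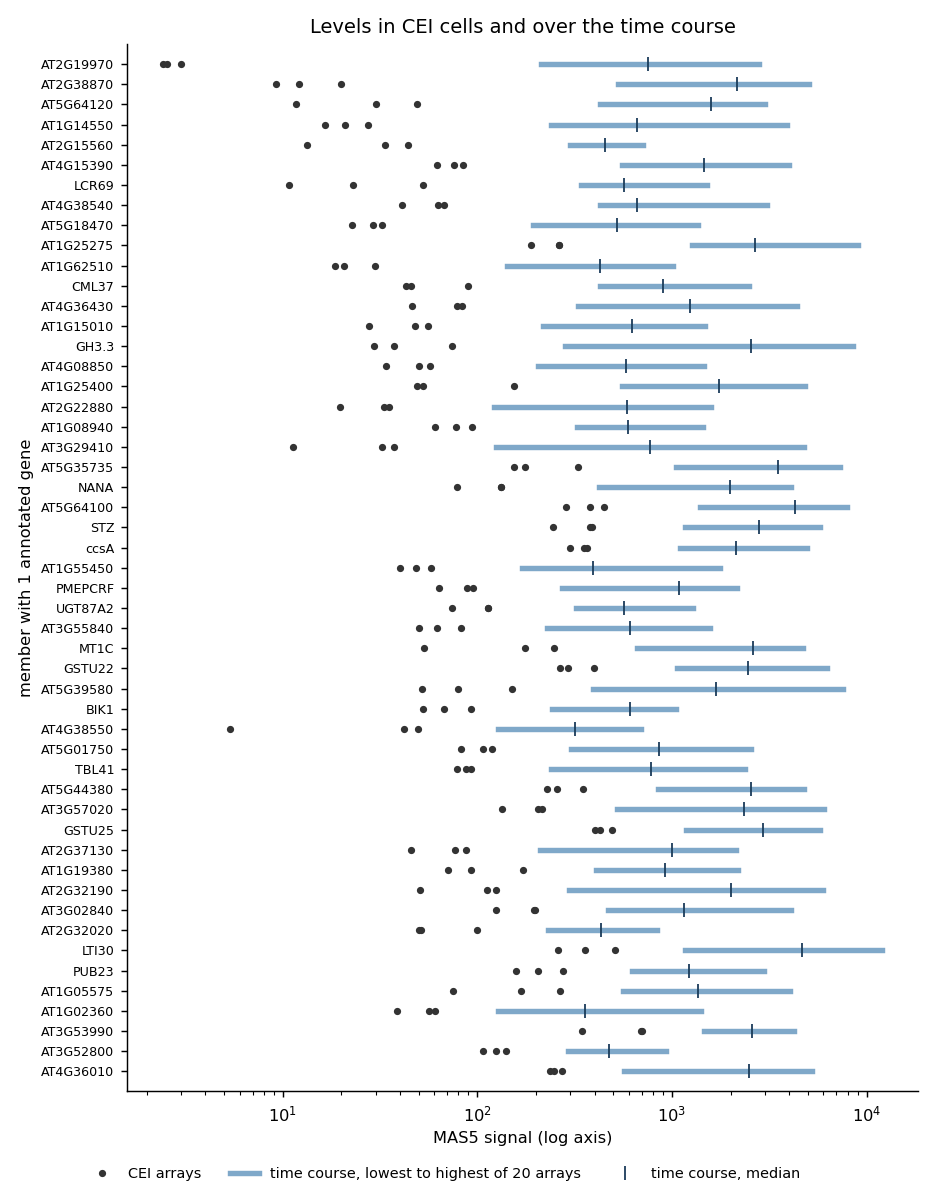
MAS5 signal (log axis) of the 51 members with 1 annotated gene, 1 row each, ordered by the ratio of the lowest time-course to the highest CEI signal. Dots are the 3 CEI arrays, the bar spans the lowest to the highest of the 20 time-course arrays and the tick is their median; AT2G19970 at the top has CEI signals of 2.43, 3.02 and 2.55, and AT4G36010 at the bottom 247, 272 and 235.

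Signalling and regulatory members numbered 8, with ratios of 2.09 to 4.74. CML37, a calmodulin-like calcium sensor, had 43.2, 90.0 and 45.6 in CEI cells against 426, 899.6 and 2484 over the time course. The receptor kinase AT4G08850, with extracellular leucine-rich repeats, had 50.1, 33.7 and 56.8 against 205, 577 and 1465, and BIK1, a cytoplasmic kinase that relays signals from immune receptors, had 52.9, 92.8 and 67.3 against 243, 606 and 1054. STZ, a zinc finger repressor induced by salt, cold and wounding, kept 246, 389 and 380.4 in CEI cells, well above the middle of those arrays, against 1163, 2795 and 5794. PUB23, a U-box ubiquitin ligase that dampens immune responses, had 157, 277 and 205 against 622, 1222 and 2972. The others were the VQ-motif protein AT2G22880, AT3G55840, a homologue of a nematode resistance protein of sugar beet, and the A20/AN1 zinc finger protein AT3G52800, with CEI means of 29.4 ± 8.36 (SD, n = 3), 64.8 ± 16.3 (SD, n = 3) and 124 ± 16.7 (SD, n = 3). STZ and AT3G52800 had ratios of 2.99 and 2.09.

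Enzymes of detoxification and small-molecule metabolism were the largest annotated group, with 12 members and ratios of 2.30 to 6.53. The acyltransferase AT4G15390 had 84.5, 62.0 and 75.7 in CEI cells against 552, 1455 and 4005 over the time course, and the FAD-linked oxidoreductase AT4G38540 had 62.9, 67.7 and 41.1 against 426, 663 and 3063. GSTU22 and GSTU25, glutathione transferases that attach glutathione to reactive compounds, kept signals of 292, 266 and 399 and of 403, 489.9 and 425 in CEI cells, against lowest time-course signals of 1056 and 1186. The glycosyltransferase UGT87A2 had 113, 114 and 74.0 against 322, 564 and 1276. AT3G29410, of the terpene synthase family, had 32.2, 11.3 and 37.3 against 125, 771 and 4765, the widest span over the time course of all members, 38.1-fold. The metallothionein MT1C, which binds metal ions, had 249, 176 and 53.3 against 660.2, 2605 and 4728, with the 3 CEI arrays themselves over 4-fold apart. The berberine bridge enzyme-like AT5G44380, the methyltransferase AT1G55450, AT1G08940 of the phosphoglycerate mutase family, the strictosidine synthase-like AT3G57020 and the acetyltransferase AT2G32020 completed the group.

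Members tied to auxin, abiotic stress and the cell wall were fewer. GH3.3, an enzyme that joins auxin to amino acids and is itself switched on by auxin, had 74.5, 37.4 and 29.3 in CEI cells against 282, 2557 and 8538 over the time course. The auxin-responsive membrane protein AT5G35735 had 328, 154 and 175 against 1045, 3492 and 7275, and LTI30, a dehydrin made under cold and drought, had 513, 258 and 356 against 1168, 4645 and 12071. The universal stress protein AT3G53990 had the mildest ratio of these, 2.09, with 699, 347 and 693 in CEI cells. In the wall group, the pectin methylesterase PMEPCRF had 94.9, 63.4 and 88.9 against 273, 1086 and 2151 and TBL41, of a family that acetylates wall polymers, had 87.4, 93.2 and 78.7 against 238, 779 and 2376. NANA, an aspartic protease, had 78.8, 133 and 132 against 421, 1992 and 4072. The 1 member from the plastid genome was ccsA, which encodes a factor for attaching haem to cytochromes, with 353, 298 and 367 against 1095, 2145 and 4953.

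Among annotated members for which no role is given, AT2G15560 had 33.5, 44.1 and 13.3 in CEI cells against 300.1, 455 and 708, the narrowest span over the time course of the members described here. AT1G25275 had 188, 264 and 263 against 1270.3, 2665 and 8984, and AT1G15010 had 48.0, 56.0 and 27.8 against 218, 622 and 1470.1. Of the members without a single gene, 254805_at had the third largest ratio, 19.2, with 1.89, 6.50 and 2.44 in CEI cells against 125, 437 and 1412. AT4G38540 and AT4G38550 are neighbours on chromosome 4 with 0 protein-coding genes between them. The members with a chromosome were spread over 1 (14), 2 (12), 3 (9), 4 (6) and 5 (9), against 854, 498, 711, 490 and 846 of the annotated probe sets above the floor. Probe sets that may bind several related transcripts, marked by the suffix _s_at, made up 10.2% of the members and 4.11% of all probe sets, and signals of these 10 cannot be assigned to 1 gene copy. The gene span had a median of 1716 bases over the 50 members that could be matched, against 2439 bases over 3399 matched probe sets above the floor.

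Lists of genes and gene families were counted over the probe sets with 1 annotated gene to place these members. The 47 members without a single annotated gene could not be counted in any list, so a family's absence from the set is not shown. Of 12 lists and 26 families, 32 had an annotated probe set, 26 had one above the floor and 6 held a member: 2 of the 14 annotated glutathione transferases, of which 4 were above the floor, 1 of 7 calcium sensors, 1 of 47 UDP-glycosyltransferases, 1 of 11 auxin response genes, 1 of 69 plastid genes and 1 of the 2 annotated touch, wound and stress genes. None of the 5 annotated genes of the SHR and SCR pathway, and none of the endodermis, cortex, epidermis or niche markers, was a member. The floor alone kept most of these out, whatever their CEI signal. Above it were 0 of the pathway, epidermis and niche genes, 1 endodermis marker (GSO1) and 1 cortex marker (AT1G09750). None of the 6 annotated WRKY factors was a member either. Among them WRKY6, a regulator of defence and senescence, came near with 137 to 301 in CEI cells and 502 to 2098 over the time course, a ratio of 1.67. WRKY53 had 27.1 to 88.6 against 76.2 to 1091, with a lowest time-course signal under the floor. GSTU27 and GSTU26 were above the floor without being members, with CEI signals of 1381 to 2235 and 1377 to 1439 against 1801 to 8267 and 398 to 4260.

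Within the SHR line, the members were mostly higher after 1 h on Dex and mostly lower after 12 h than at 0 h, but none passed the test when the 2 arrays of a group were taken as unpaired. With the replicate number as a block within each line, some members were called at 1 h and over the course, as given in the last section. The share called over all probe sets with the block is not given here, so those calls stand without a background. At 1 h, 95 of 98 members lay above 0 h, with a median log2 difference of 1.12 against -0.13 for all 15708 probe sets tested. Both arrays at 1 h were above both at 0 h for 70 members, or 71.4% of them, against 19.5% of all probe sets. By 3 h the median was 0.31, and by 6 h it was 0.04. At 12 h, 80 of 98 lay below 0 h with a median of -0.44 against 0.02 for all probe sets, and both arrays were under both at 0 h for 33 members, against 16.9% of all probe sets. In limma with Benjamini-Hochberg adjustment, 0 members and 0 of all probe sets were called at 1 h (0.0%) and at 12 h (0.0%), and 0 members were called over the whole course, against 0.00637% of all probe sets. At an unadjusted p under 0.05 the members counted 51 at 1 h, 12 at 12 h and 41 over the course, and all probe sets 2344, 1295 and 2375. The 2 arrays at 0 h lay far apart: without replicate 1 the medians were 1.58 at 1 h and -0.10 at 12 h, and without replicate 2 they were 0.70 and -0.87. In the latter case both 12 h arrays were under the 1 array left at 0 h for 77 members. A gap to 1 array is easier to reach than a gap to 2, and its share over all probe sets was not counted.

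Single members are given with their arrays. The chitinase AT1G02360 had 208 and 281 (0 h), 1414 and 1333 (1 h), 846 and 226 (3 h), 270.1 and 154 (6 h), then 128 and 190.1 (12 h). Its difference at 1 h was 2.46 ± 0.56 (SE) on the log2 scale (limma, adjusted p = 0.31, or 0.0375 with the replicate block), and both arrays at 1 h stood above all others of this line. The peroxidase AT4G36430 had 1068 and 329 (0 h), 4386 and 1671 (1 h), 2116 and 848 (3 h), 1393 and 852 (6 h), then 815 and 1288 (12 h), with a higher mean and overlapping arrays at 12 h against 0 h, and AT3G55840 had 1571 and 1205 at 1 h against 445 and 323 at 0 h. For TBL41 the signal was 238 and 264 at 12 h against 1489 and 415 at 0 h, a log2 difference of -1.61 ± 0.59 (SE) (limma, adjusted p = 0.566). AT5G44380 had 851 and 1144 at 12 h against 2388 and 2079 at 0 h, with no overlap between the groups. AT2G15560 ran the other way, with 708 and 637 at 12 h against 422 and 533 at 0 h.

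Within the SCR line the members were mostly higher than at 0 h at every later time, again with none past the test. The median log2 differences at 1, 3, 6 and 12 h were 0.59, 0.49, 0.38 and 0.80, against -0.06, -0.05, -0.03 and -0.11 for all probe sets tested. Members above 0 h numbered 85, 88, 89 and 85 of 98. At 1 h, 55 members had both arrays above both at 0 h, against 16.7% of all probe sets, and at 12 h 75 members did, against 20.6%. Without replicate 2 at 1 h, the 1 array left was above both at 0 h for 83 members. This is an easier criterion, and its share over all probe sets was not counted. In limma, 0 members were called at 1 h (0.0% of all probe sets), at 12 h (0.0127%) and over the course (0.0%). At an unadjusted p under 0.05 the members counted 23, 28 and 8, and all probe sets 1061, 1135 and 495. AT2G22880 had 371 and 314 (0 h), 587 and 667 (1 h), 834 and 661 (3 h), 743 and 458 (6 h), then 1189 and 1591 (12 h), and its difference at 12 h was 1.98 ± 0.61 (SE) (log2; limma, adjusted p = 0.576). GSTU25 had 5331 and 5766 at 12 h against 2104 and 1773 at 0 h, and AT1G25275 had 2788 and 8984 at 1 h against 1270.3 and 1565, with the 1 h arrays over 3-fold apart.

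**Figure D4:**
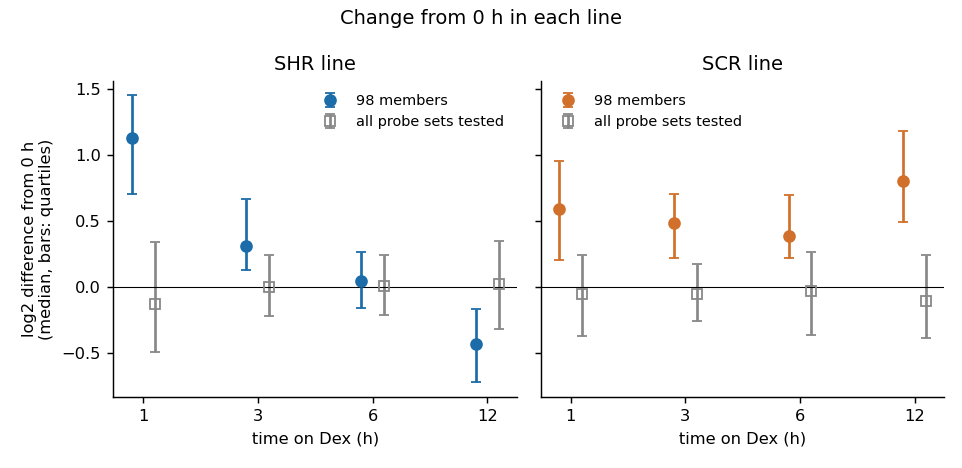
Log2 difference from 0 h (vertical axis) at 1, 3, 6 and 12 h on Dex in the SHR line (left) and the SCR line (right), as the median with quartile bars over the 98 members (filled circles) and over all 15708 probe sets tested (open squares). The members' median is 1.12 at 1 h and -0.44 at 12 h in the SHR line and 0.59 at 1 h and 0.80 at 12 h in the SCR line, while that of all probe sets stays between -0.13 and 0.02.

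Between the lines, 24 members differed in the mean over the 5 times, 21 lower and 3 higher in the SHR line (limma, adjusted p under 0.05). That is 24.5% of the members, close to the 21.0% called among all probe sets, but the direction was uneven: all probe sets gave 11.1% higher and 9.86% lower. The thaumatin-like AT4G36010 had a lower mean in the SHR line at every time, with 1108 and 594 (0 h), 2808 and 2029 (1 h), 2523 and 566 (3 h), 1021 and 566 (6 h), then 822 and 587 (12 h) in the SHR line. In the SCR line it had 2252 and 2494 (0 h), 5270.0 and 2504 (1 h), 4047 and 4379.6 (3 h), 5160.4 and 3031 (6 h), then 4347 and 4679 (12 h). Replicate 1 of the SHR line at 1 and 3 h reached the range of the SCR arrays and the other SHR arrays stayed below it, and the mean log2 difference was -1.80 ± 0.25 (SE) (limma, adjusted p = 0.000359). AT3G29410 differed by -1.94 ± 0.31 (SE) (adjusted p = 0.000854), GH3.3 by -1.90 ± 0.33 (SE) (adjusted p = 0.00154) and AT2G32190 by -1.70 ± 0.31 (SE) (adjusted p = 0.00199). The plastid gene ccsA was higher in the SHR line, by 1.20 ± 0.20 (SE) (adjusted p = 0.00113), and its arrays barely overlapped between the lines, with a lowest of 2139 in the SHR line and a highest of 2151 in the SCR line. The other 2 higher in the SHR line were AT3G02840 and 252459_s_at. Without the 4 arrays at 12 h, 7 members were called, and the count over all probe sets for that setting is not given here. AT2G32190 was no longer called without the 12 h arrays (limma, adjusted p = 0.0934). The count of members also fell without SCR replicate 1 at 3 h or SCR replicate 2 at 12 h, which leaves 1 array in a group. With each time-course array left out in turn, the members' median log2 difference stayed between -0.45 and -0.20.

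The line difference was then taken at single times, a comparison chosen after the values had been seen. It called 0 members at each of the first 4 times, where the share called among all probe sets was 0.0% (0 h), 0.0127% (1 h), 0.115% (3 h) and 0.0509% (6 h). At 12 h it called 29 members, or 29.6% of them, against 10.7% of all probe sets. All 29 were lower in the SHR line, where all probe sets gave 4.14% higher and 6.61% lower. The median log2 difference at 12 h was -1.31 for the members and 0.18 for all probe sets, and both SHR arrays were under both SCR arrays for 78 members, against 25.7% of all probe sets. At 0, 1, 3 and 6 h the members' medians were -0.06, 0.34, -0.11 and -0.38. Signalling and regulation gave 6 of its 8 members, detoxification and small-molecule enzymes 5 of 12, auxin and abiotic stress 3 of 4, secreted defence proteins 2 of 7 and peroxidases 0 of 6. Cell wall and proteases gave 1 of 3, other annotated members 2 of 10, the plastid gene 0 of 1 and members without a single gene 10 of 47. The roles were assigned by hand, and no difference between them was tested. Leaving out any 1 of the 4 arrays at 12 h leaves 1 array in a group. The count of members called then fell, with all of them still lower in the SHR line. With each time-course array left out in turn, the members' median log2 difference at 12 h stayed between -1.55 and -1.21.

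At 12 h, AT2G32190 had 387 and 297 in the SHR line against 4826 and 6004 in the SCR line, a log2 difference of -3.95 ± 0.69 (SE) (limma, adjusted p = 0.00418). The VQ-motif protein AT2G22880 had 139 and 123 against 1189 and 1591, or -3.30 ± 0.61 (SE) (limma, adjusted p = 0.00554). The dehydrin LTI30 had 2459 and 1168 against 9500.1 and 12071 (adjusted p = 0.00942 in limma). In each of these both SHR arrays lay far under both SCR arrays, and yet above all 3 CEI arrays, as the rule requires. The auxin-responsive AT5G35735 had 1278 and 1045 in the SHR line against 6904 and 6766 in the SCR line, and GH3.3 had 525 and 463 against 4169 and 8538, with log2 differences of -2.55 ± 0.52 (SE) and -3.57 ± 0.74 (SE) and adjusted p of 0.00955 and 0.00987 (limma). All 5 calls were lost without SCR replicate 2 at 12 h, where adjusted p ran between 0.0589 and 0.109 with differences of the same direction. LTI30 and AT5G35735 also lost theirs without SHR replicate 2, AT5G35735 without SCR replicate 1, and GH3.3 without either SHR array. Immune signalling members were among those called at 12 h: BIK1 had 243 and 279.7 in the SHR line against 929.5 and 989 in the SCR line (limma, adjusted p = 0.0164), and CML37 had 540.1 and 426 against 1292 and 1698 (limma, adjusted p = 0.0448). The peroxidase AT1G14550 had 332 and 311 in the SHR line against 937 and 1562 in the SCR line and missed the threshold (limma, adjusted p = 0.1).

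**Figure D5:**
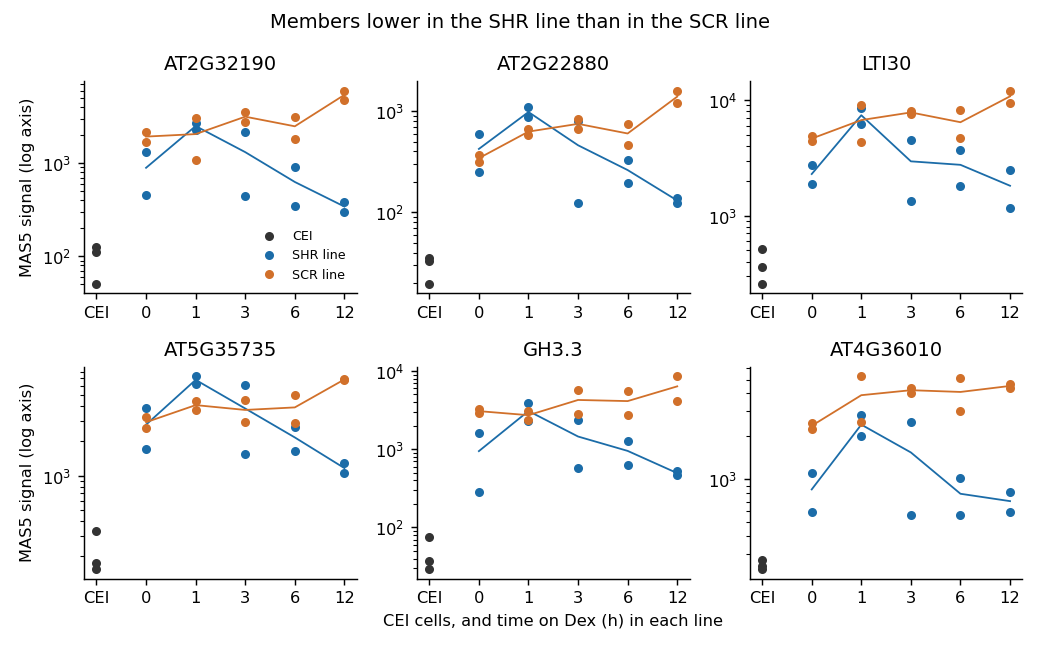
MAS5 signal (log axis) of 6 members called lower in the SHR line, on the 3 CEI arrays (left of each panel) and at 0, 1, 3, 6 and 12 h on Dex in the SHR line and the SCR line (points are arrays, lines join the means of 2). At 12 h both SHR arrays lie under both SCR arrays in all 6 panels, as for AT2G32190 with 387 and 297 against 4826 and 6004.

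Whether the change from 0 h to 12 h itself differed between the lines was tested as well, also after the values had been seen. The median over the members was -1.28 on the log2 scale (SHR line minus SCR line) against 0.11 over all probe sets, and 91 of 98 members were below 0. In limma 0 members and 0.0% of all probe sets were called, with 26 members and 1783 of all probe sets at an unadjusted p under 0.05, so a difference in course between the lines was not shown for any member. AT2G22880 had -3.48 ± 0.86 (SE) (limma, adjusted p = 0.403) and BIK1 -2.03 ± 0.60 (SE) (limma, adjusted p = 0.417). The lines also differed in a labelling control: the dap probe set AFFX-DapX-3_at was at least 171 on every SHR array and at most 3.36 on every SCR array, so line and preparation cannot be told apart.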

How the data were processed

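Signal intensities, linear and not log-transformed, were deposited by the authors, and MAS5 is the tool named in the submitters' processing notes. Its version and any filter are not stated there, and no detection calls were used. The values of each array were already scaled, with a mean between the 2nd and 98th percentile of 247 to 248 without the controls on all 23 arrays, and no further normalization was applied.

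Members, gene lists, roles and tests were chosen with earlier results of these data known. Names came from the platform annotation, which pairs 13513 of the 22746 probe sets with 1 gene, 503 with several and 8730 with none listed, and were updated through RefSeq locus tags. Values were taken as log2(signal + 10). A probe set was tested when it was above the 40th percentile of its array on at least 2 of the 20 time-course arrays, which left 15708 and kept all 98 members. A single limma fit (version 3.58.1 in R 4.3.3, using eBayes with a trend, tested on simulated data) took the 10 groups of 2 time-course arrays, with 10 residual degrees of freedom. The CEI arrays stayed out of it. Tests were two-sided, with Benjamini-Hochberg adjustment over all 15708 and a threshold of 0.05. The members' floor of 100 also bounds their time-course values from below. The number of arrays limits the precision: the median residual SD was 0.63 (log2) for the members and 0.39 for all probe sets.

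Genes named were the 15 single-gene members with the largest ratio, up to 3 of each list, up to 5 called per comparison and the probe sets at the rule's edges. Others named by role, and those given for comparisons without a call, were chosen after their values were seen. Arrays of a group were taken as unpaired. No sequences are shown, as none were given here.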

Additional observations from a re-analysis of the deposited data

Results flagged for a closer look

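Only the 51 members with 1 annotated gene were screened for opposite moves in the lines between 0 h and 12 h. Those listed had both 12 h arrays on one side of both 0 h arrays in each line. The share of all probe sets with that pattern was not counted, so the length of the list has no background. The members listed were picked for this pattern, which was not tested as such. The test of the difference in change called 0 of all 15708 probe sets in limma, with 1783 at an unadjusted p under 0.05. The values are log2 differences of the change, SHR line minus SCR line. In AT2G15560 the SHR line was higher at 12 h and the SCR line lower, with 0.9337. In the other 15 the SHR line was lower at 12 h and the SCR line higher. Among signalling members the value was -1.869 for CML37, -3.478 for AT2G22880, -1.985 for STZ, -2.034 for BIK1 and -1.959 for PUB23. Among enzymes and secreted proteins it was -1.553 for AT4G38540, -1.527 for AT1G08940, -1.765 for AT1G55450, -1.624 for AT5G44380 and -2.448 for the chitinase AT1G02360. For the stress and auxin members AT5G35735 and AT3G53990 it was -2.377 and -1.238, and for AT1G15010, AT1G25400 and AT2G32190 it was -1.858, -1.494 and -2.661.

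Of the control probe sets outside the comparisons, 3 passed the screen for signals far apart between groups. The dap labelling controls AFFX-DapX-3_at and AFFX-r2-Bs-dap-3_at had lowest signals of 171 and 112.4 on the SHR arrays, against highest signals of 3.36 and 8.40 on the SCR arrays. On the CEI arrays AFFX-DapX-3_at was 1.47 to 5.62. Other labelling controls split by line below the cut of the screen, as AFFX-r2-Bs-thr-3_s_at (88.3 against 14.9) and AFFX-PheX-3_at (83.6 against 14.5). Their 5' probe sets overlapped, as AFFX-PheX-5_at (2.20 against 9.18). The control AFFX-r2-At-U12639_at averaged 539.7 ± 257 on the CEI arrays (SD, n = 3), with 304 as the lowest, against at most 27.6 on the time-course arrays.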

How the results depend on the processing

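The number of members was 182 at a ratio of 1.5 and 39 at a ratio of 3, and it was 98 to 131 when each array was left out of the rule in turn. Replicate differences correlated between times at 0.05 to 0.51 for SHR arrays (over 0.1 in 9 of 10 pairs of times, median 0.39) and -0.22 to 0.58 for SCR arrays (8 of 10, median 0.25). As some fell below 0.1 and the labels name no shared batch, the numbers were not taken to pair the arrays, although every SHR correlation was above 0. With the replicate number as a block within each line, 12 members were called in the SHR line at 1 h (AT1G02360, AT4G36430 and AT3G55840 among them, at adjusted p of 0.0375, 0.036 and 0.0301 in limma), 28 over the SHR course, 37 for the line mean and 57 for the lines at 12 h; for the other comparisons it moved no count of members by over 1.5 times. Leaving out each time-course array in turn gave 0 to 3 called members for the SHR course, 15 to 34 for the line mean and 3 to 41 for the lines at 12 h. Without both SCR arrays at 6 h the SHR course called 3, and without the 4 arrays at 12 h the line mean called 7. Without the filter on low values the lines at 12 h gave 19. The causes were not tested. For the block, the left-out arrays and the fit without the filter, the share called over all probe sets is not given here. These counts of members are therefore shown without a background, and they are not read as an excess over all probe sets. No result changed direction under the alternatives run: pseudocounts of 1 and 50, no filter, quantile normalization, all 23 arrays in 1 fit, no variance trend, the block and the left-out arrays. The leave-out of SCR 6 h, the variance trend, the 12 h leave-out and the single-time comparisons were chosen after seeing the data. With 2 arrays per group and a residual SD of the members of 0.63 (log2), even large changes with time were not called in the unpaired fit. For AT1G14550 in the SHR line at 1 h the difference was 2.57 ± 0.73 (SE) (log2; limma, adjusted p = 0.31). A signal in a CEI array near the 20th percentile, between 7.0 and 12.3, gives no firm ratio.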
